A study of Mus musculus with 30 samples.

Results

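The genes described here encode proteins of the mouse mitochondrial ribosome. They were chosen by symbol, as the genes named Mrpl or Mrps followed by a number, with pseudogenes left out, and by no measured value. The deposited table held 70 such genes among 20227 gene symbols, 42 named for the large subunit and 28 for the small one. A further 8 symbols of this form in the GENCODE M21 annotation were not in the table, so the family is not complete here. The FPKM values (fragments per kilobase of transcript, scaled to the mapped fragments of each library) of each gene's transcripts were summed, and a transcript that a library did not list was counted as 0. A mean summed FPKM of at least 1 was reached by 65 of the 70, among 8130 genes in all, and these were tested.

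Whole hippocampi were taken from mice at 15 months, and their RNA was sequenced in 30 poly(A) libraries of 6 mice on each of 5 diets, 3 female and 3 male. The diets are labelled ChowCR, 5% P, 10% P, 15% P and Chow, and the series title speaks of caloric restriction and of diets low in protein and high in carbohydrate. Neither CR nor P is spelled out in the labels, and Chow is the diet that the other 4 are set against here. Labels state neither strain, degree of restriction nor time on diet, and the groups are described there as biological replicates.

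The mitochondrial ribosome translates the few proteins that mitochondrial DNA encodes, which are membrane subunits of oxidative phosphorylation. Its own proteins are encoded in the nucleus, made in the cytosol and imported, and they assemble in the organelle on RNAs transcribed from mitochondrial DNA. In the worm Caenorhabditis elegans, lowering the homologue of Mrps5 lengthens life, and the family has been looked at in ageing for that reason.

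No mitochondrial ribosomal protein gene passed an adjusted p of 0.05 in any comparison of diets or sexes, and between 0 and 6 of them (0% to 9.23%) reached an unadjusted p under 0.05 in a comparison (limma with Benjamini-Hochberg adjustment over 8130 genes). Over all 8130 genes, 0% to 0.0861% passed the adjusted p in a comparison and 4.76% to 6.51% reached the unadjusted p. The lack of a call is thus not particular to this family. The genes summed to between 603 and 778 FPKM per hippocampus, which was 0.376% to 0.450% of all FPKM in a library. A group of 16 genes had a coefficient of variation under 20% over the 30 mice, whereas Mrpl41, Mrpl15, Mrpl11 and several others lay at separate low and high levels in different mice of the same diet. Libraries listed 19681 to 21853 transcripts each, and 60 to 66 of the 70 genes were above 0 in each. Read totals cannot be read from FPKM, so the depth behind each value is unknown.

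As a check of the labelled tissue, all 7 neuronal markers listed for it were in the table. Camk2a, Snap25, Syt1 and Slc17a7 mark neurons of the forebrain in general, and they, Neurod6 and Wfs1 were above 0 in all 30 libraries. Prox1, the marker of dentate granule cells, was above 0 in 25 libraries and at 0 in 5. The sum of the 7 ran from 1286 to 1932 FPKM in ChowCR, 1467 to 1780 in 5% P, 1296 to 1905 in 10% P, 1408 to 1683 in 15% P and 1246 to 1855 in Chow. The summed level of 5 choroid plexus markers, a tissue beside the hippocampus, ran from 7.16 to 7574 FPKM over the libraries and from low to high within each diet. Ttr gave nearly all of that sum, with 7513 of the 7574 FPKM in ChowCR replicate 6. Clic6, Folr1 and Kcnj13 were above 0 in only 10, 12 and 14 libraries. Sums of oligodendrocyte markers ran from 139 to 2014 FPKM, of microglial markers from 13.6 to 74.7, of endothelial markers from 4.11 to 30.2 and of blood markers from 42.3 to 239, with overlap between every diet and Chow. On average Mbp gave most of the oligodendrocyte sum, with a mean of 934 FPKM, and Mog was above 0 in 1 library. Of the 5 microglial and 4 endothelial markers, 0 were above 0 in all 30 libraries, and the microglial marker C1qa was above 0 in 10. The 5 astrocyte markers, all in the table, summed to 144 to 285 FPKM in ChowCR, 151 to 340 in 5% P, 271 to 386 in 10% P, 137 to 363 in 15% P and 97 to 243 in Chow, so that 10% P lay wholly above Chow. The part of these markers in the results was not tested. A fit with the choroid plexus gene Ttr as a covariate called no mitochondrial ribosomal protein gene, but neither did the fit without it, so it cannot show that part. In such bulk tissue, fewer cells of a type and less RNA per cell cannot be told apart.

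Among the tested genes, the median of the mean summed FPKM was 9.94 for the large subunit and 7.75 for the small subunit, against 6.32 for the 8130 genes tested. The 5 genes of highest mean level were Mrpl20 with 34.9 FPKM, Mrps18a with 29.1, Mrpl30 with 26.4, Mrps12 with 23.8 and Mrpl12 with 23.6. Mrpl20 and Mrpl30 are core proteins of the large subunit with bacterial homologues. Mrps12 lies at the decoding centre of the small subunit, and Mrpl12 forms the stalk that recruits translation factors. Mrps18a is one of 3 homologues of a single bacterial protein, the others being Mrps18b and Mrps18c. Its protein is found in the large subunit despite the name, as is that of Mrps30, and the counts by subunit follow the symbols.

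The promoters of these 5 genes are shown because they stand upstream of the most abundant messages of the family. Each holds 250 bases before and 50 after the annotated start, 5′ to 3′ on the gene's strand, from RefSeq on GRCm38.p6. Capitals mark 3 motifs searched on both strands: the ETS core CCGGAAG, the NRF1 palindrome (GCGCA, any base, then GCGC) and the YY1 core AANATGGC. The windows are chr4:155802628-155802927 on the plus strand for Mrpl20, chr17:46110754-46111053 on the plus strand for Mrps18a, chr1:37890227-37890526 on the plus strand for Mrpl30, chr7:28741772-28742071 on the minus strand for Mrps12 and chr11:120484387-120484686 on the plus strand for Mrpl12.
Mrpl20 promoter: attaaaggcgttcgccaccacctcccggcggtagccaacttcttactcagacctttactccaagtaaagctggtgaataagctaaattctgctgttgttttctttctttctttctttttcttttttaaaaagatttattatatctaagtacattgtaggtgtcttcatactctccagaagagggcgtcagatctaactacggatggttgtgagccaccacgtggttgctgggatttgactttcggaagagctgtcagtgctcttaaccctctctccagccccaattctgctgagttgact
Mrps18a promoter: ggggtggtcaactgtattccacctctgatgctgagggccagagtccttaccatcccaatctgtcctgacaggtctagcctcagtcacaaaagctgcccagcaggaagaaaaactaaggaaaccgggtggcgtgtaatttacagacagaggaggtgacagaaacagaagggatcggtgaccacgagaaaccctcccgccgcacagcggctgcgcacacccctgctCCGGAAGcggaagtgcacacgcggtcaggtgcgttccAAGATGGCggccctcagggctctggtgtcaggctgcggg
Mrpl30 promoter: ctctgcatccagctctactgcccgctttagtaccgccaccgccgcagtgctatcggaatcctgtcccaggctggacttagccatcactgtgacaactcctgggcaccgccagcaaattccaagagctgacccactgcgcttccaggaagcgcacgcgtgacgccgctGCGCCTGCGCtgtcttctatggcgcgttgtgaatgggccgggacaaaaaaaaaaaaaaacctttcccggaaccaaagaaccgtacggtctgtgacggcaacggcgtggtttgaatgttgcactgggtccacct
Mrps12 promoter: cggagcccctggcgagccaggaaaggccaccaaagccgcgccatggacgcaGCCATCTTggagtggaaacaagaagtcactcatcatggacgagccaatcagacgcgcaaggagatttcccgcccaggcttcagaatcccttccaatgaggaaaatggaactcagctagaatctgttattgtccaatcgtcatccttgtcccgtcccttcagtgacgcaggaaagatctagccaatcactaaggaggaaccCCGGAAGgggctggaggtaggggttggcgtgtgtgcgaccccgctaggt
Mrpl12 promoter: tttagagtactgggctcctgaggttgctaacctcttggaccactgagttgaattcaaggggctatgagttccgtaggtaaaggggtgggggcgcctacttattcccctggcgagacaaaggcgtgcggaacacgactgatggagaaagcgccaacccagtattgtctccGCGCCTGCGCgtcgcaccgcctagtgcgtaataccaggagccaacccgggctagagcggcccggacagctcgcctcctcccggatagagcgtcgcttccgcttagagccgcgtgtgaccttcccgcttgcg

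The window of Mrpl20 held none of the 3 motifs, those of Mrps18a and Mrps12 held an ETS and a YY1 core each, and those of Mrpl30 and Mrpl12 held the NRF1 palindrome. These are the letters recognised by nuclear regulators known for driving mitochondrial genes. Over the 62 genes of the family with a RefSeq promoter, 37.1% held the ETS core, against 18.8% of tested genes and 9.12% of all 27025 promoters. The NRF1 palindrome stood in 21% of the family, 12.2% of tested genes and 4.78% of all promoters. The YY1 core stood in 29% of the family, 9.48% of tested genes and 6.23% of all promoters. At least 1 of the 3 motifs was found in 43 of the 62, or 69.4%, against 34.6% of tested genes and 18.0% of all promoters. The letters CCAAT were found on either strand at like shares, 40.3% of the family, 38.9% of tested genes and 37.9% of all promoters. TATAAA was found in 4.84%, 6.22% and 14.2% of the same sets. Median GC content was 58.5% in the family and 62% in tested genes; the motif shares and GC content were not tested against each other. These shares are descriptions of letters, and no binding was measured.

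Many of the genes share their start region with a neighbour. A protein-coding gene on the other strand started within 1000 bases of 30 of the 70 genes (42.9%), against 15.0% of the 7778 tested genes found in the annotation (GENCODE M21, GRCm38). Pairs of this kind included Mrps12 with Sars2, the mitochondrial seryl-tRNA synthetase, at 172 bases, and Mrpl36 with Ndufs6, a complex I subunit, at 29 bases. Mrpl43 was paired with Twnk, the mitochondrial DNA helicase, at 779 bases, and Mrpl30 with Mitd1 at 66 bases. The annotated span of 39 of the 70 genes (55.7%) overlapped another gene on either strand, near the 53.9% of tested genes. For 33 of the 70 the overlap included a gene on the opposite strand, for which the share of tested genes is not given here. The library kit marks strand, but no label gives the strand setting of the counting. Values of overlapping genes such as Mrpl36, Mrpl43, Mrpl14 and Mrpl10 are therefore uncertain where counting could have joined both strands.

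At the low end stood Mrps18b with a mean of 1.17 FPKM, Mrps15 with 1.26, Mrpl35 with 1.30, Mrpl37 with 1.41 and Mrpl57 with 1.59. A single library set much of the mean of Mrpl37, which was 19.3 FPKM in 5% P replicate 3 and at most 1.97 in each of the others. In Mrps15, transcripts annotated as protein coding gave 0% of the summed FPKM. The same share was 0% in Mrpl32 and Mrpl33, 26.4% in Mrps33, 29.2% in Mrps26 and 33.02% in Mrps34. It was 36.4% in Mrps24 and 36.9% in Mrpl37. A value for these genes thus rests largely on transcripts annotated as retained introns, processed transcripts or targets of nonsense-mediated decay. Over the family, 107 of the 199 transcript rows were annotated as protein coding and 61 as retained introns.

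A mean of 1 FPKM was missed by 5 genes. Mrps5, a small subunit protein near the messenger RNA channel, was above 0 in 7 libraries, with 14.3 FPKM in 15% P replicate 1 and at most 2.87 FPKM elsewhere. Mrpl4 was above 0 in 2 libraries, both of 15% P, at 5.27 and 13.9 FPKM. Mrpl22 was above 0 in 3 libraries and reached 5.66 FPKM. Mrpl48 and Mrps10 stayed at or under 0.579 FPKM in every library. A value of 0 can be a transcript that assembly did not list, and does not show that the gene is silent. Mrps36 was not among the gene symbols of the table and could not be analysed.

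**Figure D1:**
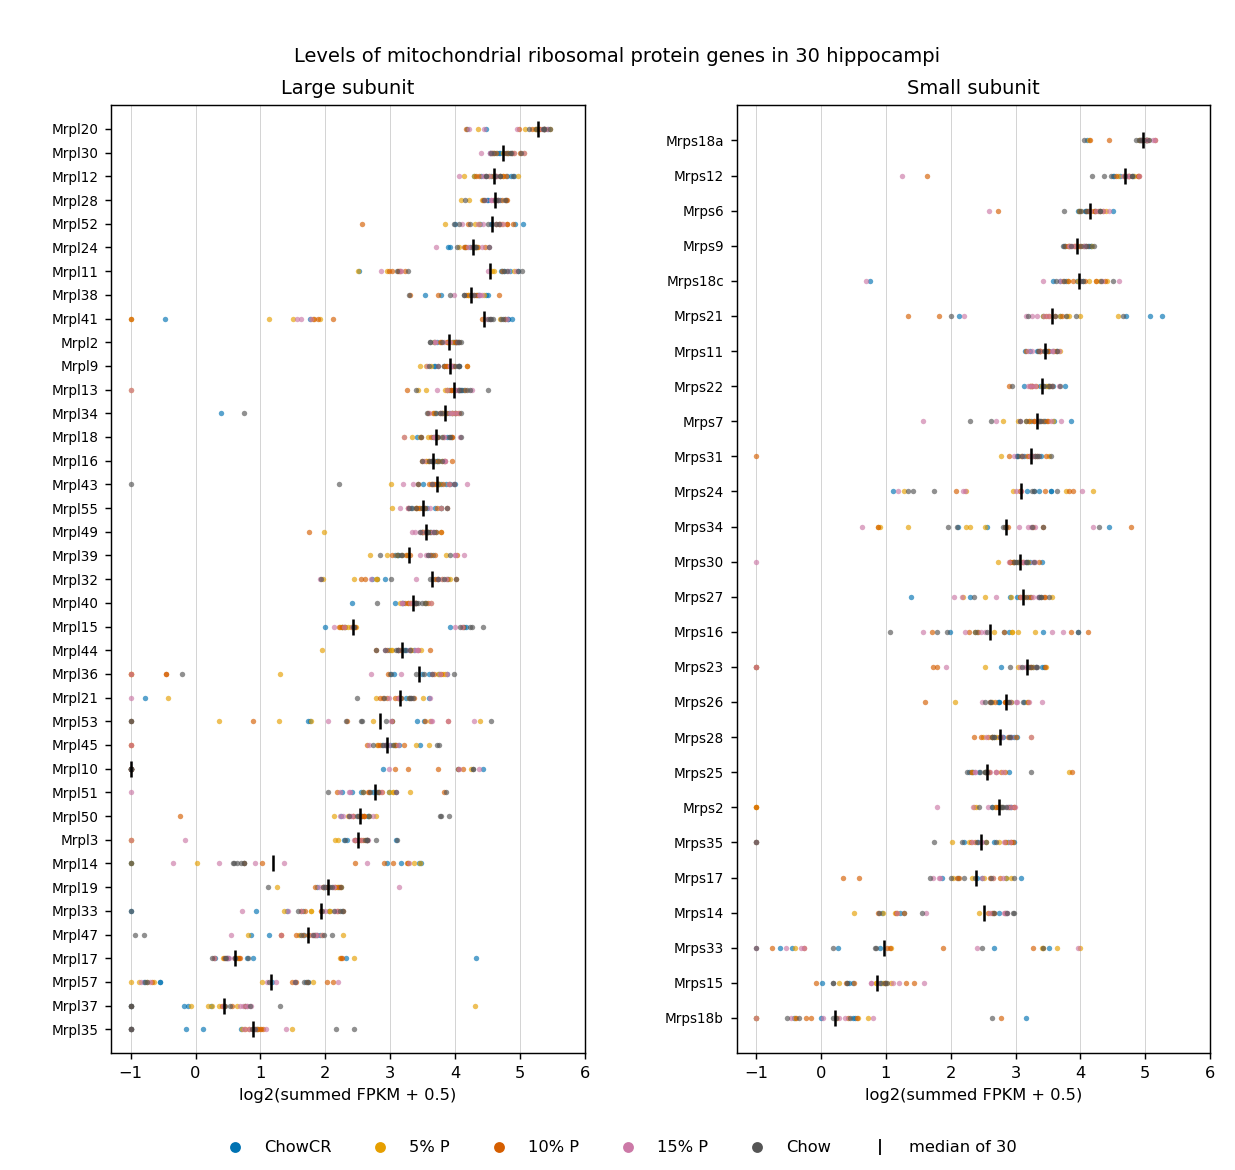
Summed FPKM of the 65 tested genes on a log2(FPKM + 0.5) scale, 39 of the large subunit and 26 of the small one, ordered by mean, with 1 point per library coloured by diet and a bar at the median of 30. Genes such as Mrpl16 form 1 tight column of points, whereas Mrpl41, Mrpl11 and Mrpl15 split into separate low and high sets that both hold several diets.

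The steadiest gene was Mrpl16, a large subunit protein near the peptidyl transferase centre, on chromosome 19 from 11770391 to 11774960. Its level was 12.003 to 12.96 FPKM in ChowCR (median 12.5), 11.2 to 13.9 in 5% P (median 11.9), 10.7 to 15.0 in 10% P (median 12.5), 10.9 to 13.9 in 15% P (median 12.9) and 10.7 to 13.4 in Chow (median 11.96). All 5 diets overlapped, and the coefficient of variation over 30 libraries was 8.57%. Next in order of steadiness were Mrps9, Mrpl2, Mrps11, Mrpl28, Mrpl24, Mrpl30 and Mrpl9. In all, 16 genes had a coefficient of variation under 20%, 11 of the large subunit and 5 of the small. Among them were the stalk gene Mrpl12 and Mrpl44, whose protein has a ribonuclease III fold. A value under 20% does not exclude separate levels. Mrps18a, also among the 16, was at or under 21.2 FPKM in 5 libraries and at or above 28.3 FPKM in 25. A further 31 genes lay between 20% and 50%, and 18 lay above 50%.

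After diet and sex means were removed, the median SD of log2 values was 0.77 for the tested genes of the family and 0.95 for the 8130 genes tested. It was 0.35 for 63 nuclear subunits of oxidative phosphorylation and 1.81 for 30 genes with symbols of cytosolic ribosomal proteins. The latter were drawn by symbol alone (Rpl, Rps or Rplp and a number). That rule can also take genes of other kinds, such as the kinases named Rps6k, and these were not removed. Of the 65 genes, 43 (66.2%) were above 0 in all 30 libraries, against 47.7% of the genes tested. The steady genes were weakly related to each other over mice. The median Pearson correlation of the 120 pairs among the 16 steady genes was 0.11, with a range of -0.47 to 0.51, over 30 libraries that also share their scaling.

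Several genes took 1 of 2 levels, a pattern noticed in the values and described without a test. Mrpl41, a large subunit protein found in mitochondria but not in bacteria, was at or under 3.82 FPKM in 14 libraries and at or above 20.8 FPKM in 16. Mrpl11, which lies at the site where elongation factors bind, was at or under 9.14 FPKM in 14 and at or above 22.2 FPKM in 16. Mrpl15 was at or under 5.04 FPKM in 20 libraries and at or above 14.6 FPKM in 10. Mrpl10, which anchors the Mrpl12 stalk, was at 0 in 16 libraries and at or above 6.93 FPKM in 14. Mrps12 was at 1.88 FPKM in 15% P replicate 2 and 2.61 FPKM in 10% P replicate 4, and between 17.7 and 29.4 FPKM in the other 28. The low sets were not the same mice: Chow replicates 4 and 5 were low for Mrpl15, at 4.86 and 4.93 FPKM, and high for Mrpl41, at 26.3 and 23.1 FPKM. For Mrpl41, Mrpl11, Mrpl15 and Mrps12 the transcript of highest mean was listed in all 30 libraries, so their low values are listed ones. For Mrpl10 the only transcript was not listed in the 16 libraries at 0. What sets the low level was not tested.

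The genes of the large subunit summed to 453 ± 32.8 FPKM in ChowCR, 408 ± 26.4 in 5% P, 428 ± 33.6 in 10% P, 436 ± 39.1 in 15% P and 461 ± 24.2 in Chow (mean ± SD, n = 6 each). The lowest, median and highest sums were 374, 419 and 431 FPKM in 5% P, against 431, 453 and 497 FPKM in Chow, so that these groups met at their edges. Mrpl41 averaged 5.93 ± 9.54 FPKM in 5% P and 23.9 ± 1.68 FPKM in Chow, and Mrpl15 averaged 4.55 ± 0.321 FPKM in 5% P and 14.04 ± 7.24 FPKM in Chow. The small subunit genes summed to 251 ± 22.1 FPKM in ChowCR, 244 ± 12.3 in 5% P, 238 ± 22.02 in 10% P, 236 ± 29.1 in 15% P and 240 ± 23.1 in Chow, with overlap between every diet and Chow. Sums over genes follow the most abundant ones and are given without a test.

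**Figure D2:**
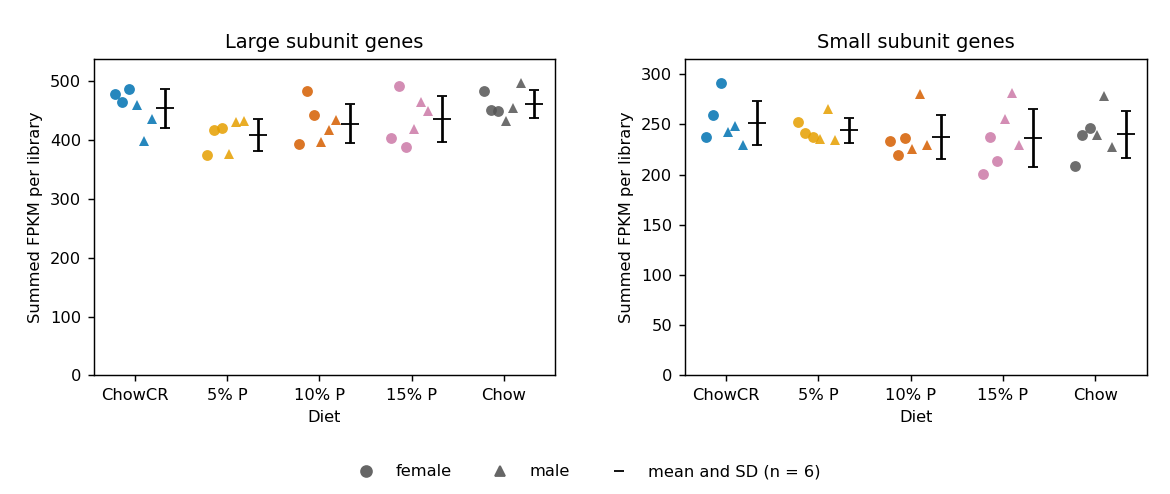
Summed FPKM per library of the large subunit genes (left) and small subunit genes (right) by diet, with circles for females, triangles for males and the mean with its SD of 6 libraries beside them. The 5% P libraries lie between 374 and 431 FPKM for the large subunit and the Chow libraries between 431 and 497 FPKM, while the small subunit sums overlap between all diets.

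Of the 65 genes, 0 were called between ChowCR and Chow, where 0.0738% of all genes tested passed the adjusted p (limma). The difference was above 0 for 33 genes, or 50.8%, against 52.7% of all genes tested. An unadjusted p under 0.05 was reached by 2 genes, or 3.08%, against 6.51% of all genes tested. That count was 4 without ChowCR replicate 5. It was 1 without Chow replicate 6, without ChowCR replicate 1, 2 or 4, without 5% P replicate 2 or 6, without 10% P replicate 1, 2, 5 or 6, and without 15% P replicate 3 or 4. The median log2 difference was 0.014, against 0.022 over all genes tested.

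The 4 genes with the smallest p between ChowCR and Chow were Mrpl43, Mrpl14, Mrps7 and Mrpl17. Mrpl43, on chromosome 19 from 45004829 to 45006442, had 10.9, 13.6 and 15.5 FPKM as the lowest, median and highest value in ChowCR, against 0, 11.1 and 15.4 FPKM in Chow. The ChowCR values all lay inside the range of Chow apart from the highest, and the Chow group held 1 library at 0 and 1 at 4.11 FPKM. The log2 difference was 1.14 ± 0.50 (SE, adjusted p = 0.698, limma), and 0.39 without Chow replicate 4, the library at 0. Mrpl14, whose protein faces the small subunit and binds a factor that keeps the subunits apart, had 0, 7.84 and 10.7 FPKM in ChowCR, against 0, 1.03 and 1.18 FPKM in Chow. All 6 Chow libraries were low, and 4 of 6 ChowCR libraries were at 5.00 FPKM or above. The log2 difference was 1.75 ± 0.85 (SE, adjusted p = 0.767, limma).

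Mrps7, which contacts messenger RNA in the head of the small subunit, had 8.96, 10.4 and 14.01 FPKM in ChowCR, against 4.43, 8.16 and 9.98 FPKM in Chow. The groups overlapped, and the log2 difference was 0.51 ± 0.26 (SE, adjusted p = 0.788, limma). Mrpl17 had 0.727, 1.29 and 19.4 FPKM in ChowCR, against 0.690, 0.950 and 1.25 FPKM in Chow. Its log2 difference of 0.99 became 0.43 without ChowCR replicate 3, the library at 19.4 FPKM, and was 0.077 in females alone and 1.90 in males alone. In the same way that of Mrps7 was 0.30 in males alone, and that of Mrpl43 was 1.87 in females alone and 0.40 in males alone.

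Between 5% P and Chow, 0 of the 65 genes and 0% of all genes tested were called by limma. At an unadjusted p under 0.05 there were 6 genes, or 9.23%, against 5.19% of all genes tested, and the differences of all 6 were negative, against 2.68% of all genes tested with a negative difference at that p. The count was 3 without 5% P replicate 6. The differences were above 0 for 32 of the 65 genes, or 49.2%, against 49.6% of all genes tested. The median log2 difference was -0.020, against -0.0018 over all genes tested.

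Mrpl41, on the minus strand of chromosome 2 from 24974117 to 24975098, had the smallest p. It had 0, 2.66 and 25.3 FPKM as lowest, median and highest value in 5% P, against 22.3, 23.3 and 26.3 FPKM in Chow. All 6 Chow libraries were at the high level, and 1 of 6 libraries of 5% P was. The log2 difference was -2.93 ± 0.997 (SE, 95% interval -4.98 to -0.88, adjusted p = 0.913, limma). At the high level were also 4 of 6 libraries in ChowCR, 2 in 10% P and 3 in 15% P. The corresponding log2 differences from Chow were -1.18 ± 0.997 in ChowCR, -2.27 ± 0.997 in 10% P and -1.48 ± 0.997 in 15% P, none of which passed the adjusted p. These comparisons share the 6 Chow libraries.

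Mrpl15, on the minus strand of chromosome 1 from 4773206 to 4785739, had 4.18, 4.52 and 5.04 FPKM in 5% P, against 4.86, 17.3 and 21.2 FPKM in Chow. None of the 5% P libraries was at the high level, whereas 4 of 6 Chow libraries were, and the other two of Chow lay within the range of 5% P. The log2 difference was -1.31 ± 0.47 (SE, adjusted p = 0.922, limma). Mrpl3, a protein that reaches toward the peptidyl transferase centre, had 0, 3.99 and 5.36 FPKM in 5% P, against 4.46, 5.74 and 8.13 FPKM in Chow. Its log2 difference of -1.46 ± 0.61 became -0.96 without 5% P replicate 3, -0.35 where libraries not listing its top transcript were left out, and -2.21 with a pseudocount of 0.1. Mrps34 had 1.35, 3.12 and 5.26 FPKM in 5% P, against 3.37, 7.77 and 19.03 FPKM in Chow. The log2 difference was -1.27 ± 0.57 over all transcripts, 0.18 over protein-coding transcripts alone and -2.03 over the transcript of highest mean.

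**Figure D3:**
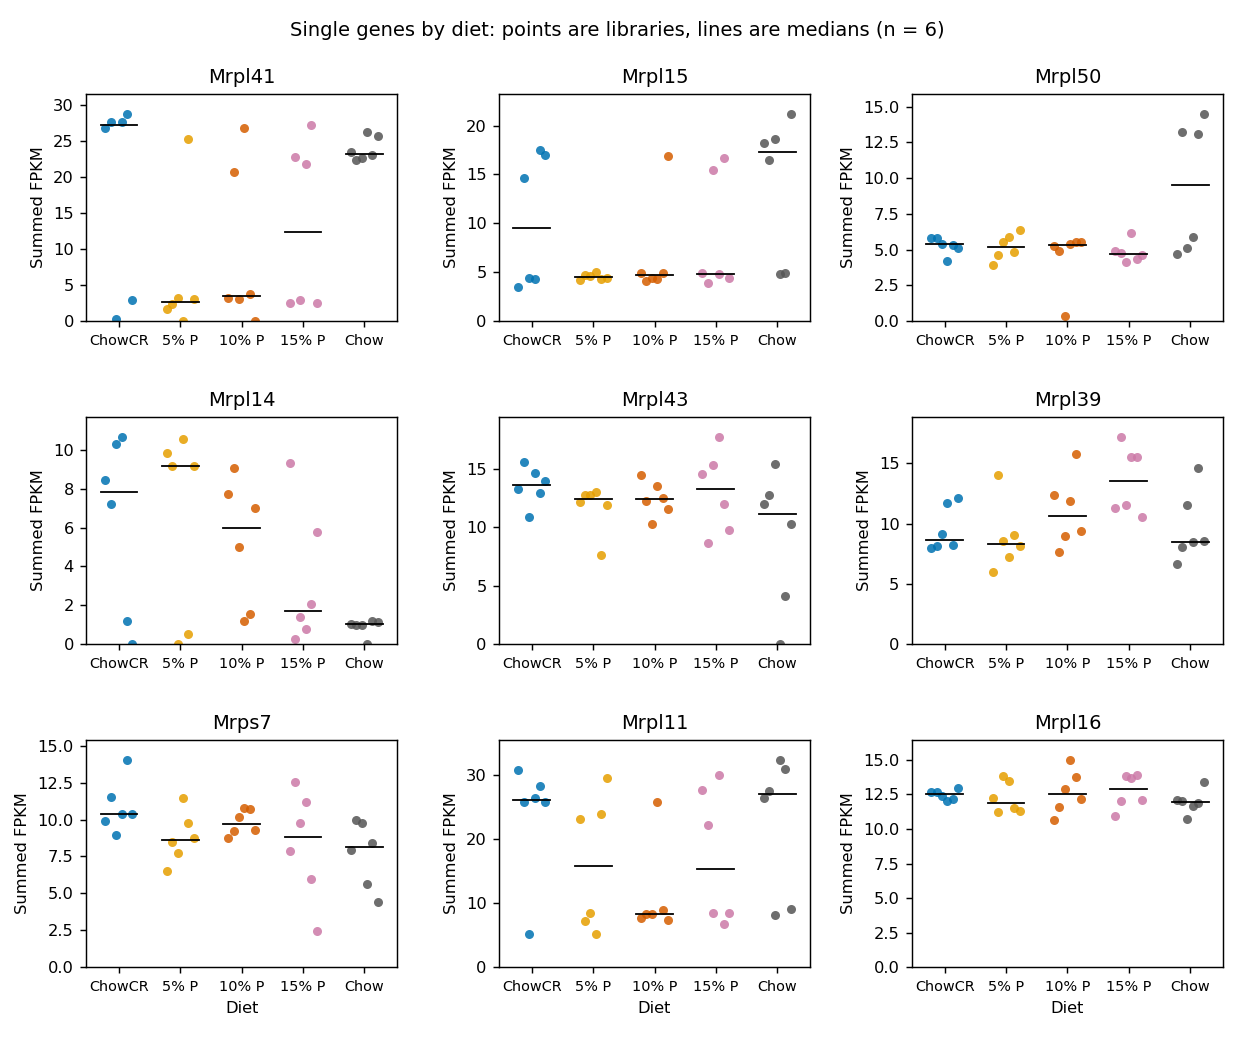
Summed FPKM of 9 genes by diet, with 1 point per library and a line at the median of 6. Mrpl41 is at 22.3 FPKM or above in all 6 Chow libraries and at 3.28 FPKM or under in 5 of 6 libraries of 5% P, Mrpl14 is at 1.184 FPKM or under in all Chow libraries, and Mrpl16 overlaps between all diets.

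Between 10% P and Chow, limma called 0 of the 65 genes and 0.0246% of all genes tested. An unadjusted p under 0.05 was reached by 4 genes, or 6.15%, against 6.13% of all genes tested. The count was 2 without any 1 of 10% P replicates 1, 2, 3 and 6. The differences were above 0 for 29 genes, or 44.6%, against 51% of all genes tested, and the median log2 difference was -0.015 against 0.0081. The astrocyte markers, of which 3 of 5 were above 0 in all 30 libraries, summed to 271 to 386 FPKM in 10% P, against 97 to 243 FPKM in Chow, and their part in these results was not tested.

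Mrpl50, on the minus strand of chromosome 4 from 49512596 to 49521093, had the smallest p of the family in this comparison. Its level was 0.350, 5.31 and 5.55 FPKM in 10% P, against 4.66, 9.49 and 14.5 FPKM in Chow. The Chow group held 3 libraries at 13.1 FPKM or above, and no library of any other diet passed 6.374 FPKM. The log2 difference was -1.09 ± 0.35 (SE, 95% interval -1.80 to -0.37, adjusted p = 0.629, limma), and -0.64 without 10% P replicate 3, the library at 0.350 FPKM. In the other diets the difference from the same Chow libraries was -0.64 ± 0.35 in ChowCR, -0.67 ± 0.35 in 5% P and -0.76 ± 0.35 in 15% P. Mrpl14 had 1.18, 6.00 and 9.06 FPKM in 10% P, against 0, 1.03 and 1.18 FPKM in Chow, with a log2 difference of 1.86 ± 0.85. Mrpl41 had 0, 3.52 and 26.8 FPKM in 10% P, against 22.3, 23.3 and 26.3 FPKM in Chow. Mrpl15 had 4.14, 4.68 and 16.8 FPKM in 10% P, against 4.86, 17.3 and 21.2 FPKM in Chow, with a log2 difference of -1.02 ± 0.47.

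Between 15% P and Chow, limma called 0 of the 65 genes and 0.0123% of all genes tested. An unadjusted p under 0.05 was reached by 3 genes, or 4.62%, against 5.31% of all genes tested, and by 1 gene without Chow replicate 2, 15% P replicate 2 or 15% P replicate 6. The differences were above 0 for 24 genes, or 36.9%, against 47.4% of all genes tested. The median log2 difference was -0.058, against -0.018 over all genes tested.

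Mrpl39, a large subunit protein related to threonyl-tRNA synthetases, on chromosome 16 from 84717576 to 84735742, had 10.6, 13.5 and 17.2 FPKM in 15% P, against 6.64, 8.502 and 14.6 FPKM in Chow. All 15% P libraries were above the Chow median, and the groups overlapped between 10.6 and 14.6 FPKM. The log2 difference was 0.50 ± 0.21 (SE, 95% interval 0.073 to 0.92, adjusted p = 0.900, limma), and 0.27 in males alone. Mrpl50 had 4.16, 4.69 and 6.16 FPKM in 15% P, against 4.66, 9.49 and 14.5 FPKM in Chow. Mrpl43 had 8.69, 13.3 and 17.7 FPKM in 15% P, against 0, 11.1 and 15.4 FPKM in Chow, and its log2 difference of 1.05 ± 0.50 became 0.30 without Chow replicate 4 and 0.57 in males alone. Mrpl3 had 0, 5.02 and 5.80 FPKM in 15% P, against 4.46, 5.74 and 8.13 FPKM in Chow. Its log2 difference was -1.19 ± 0.61, and -0.71 without 15% P replicate 2, -0.13 where libraries not listing its top transcript were left out, -2.08 in females alone and -0.30 in males alone.

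**Figure D4:**
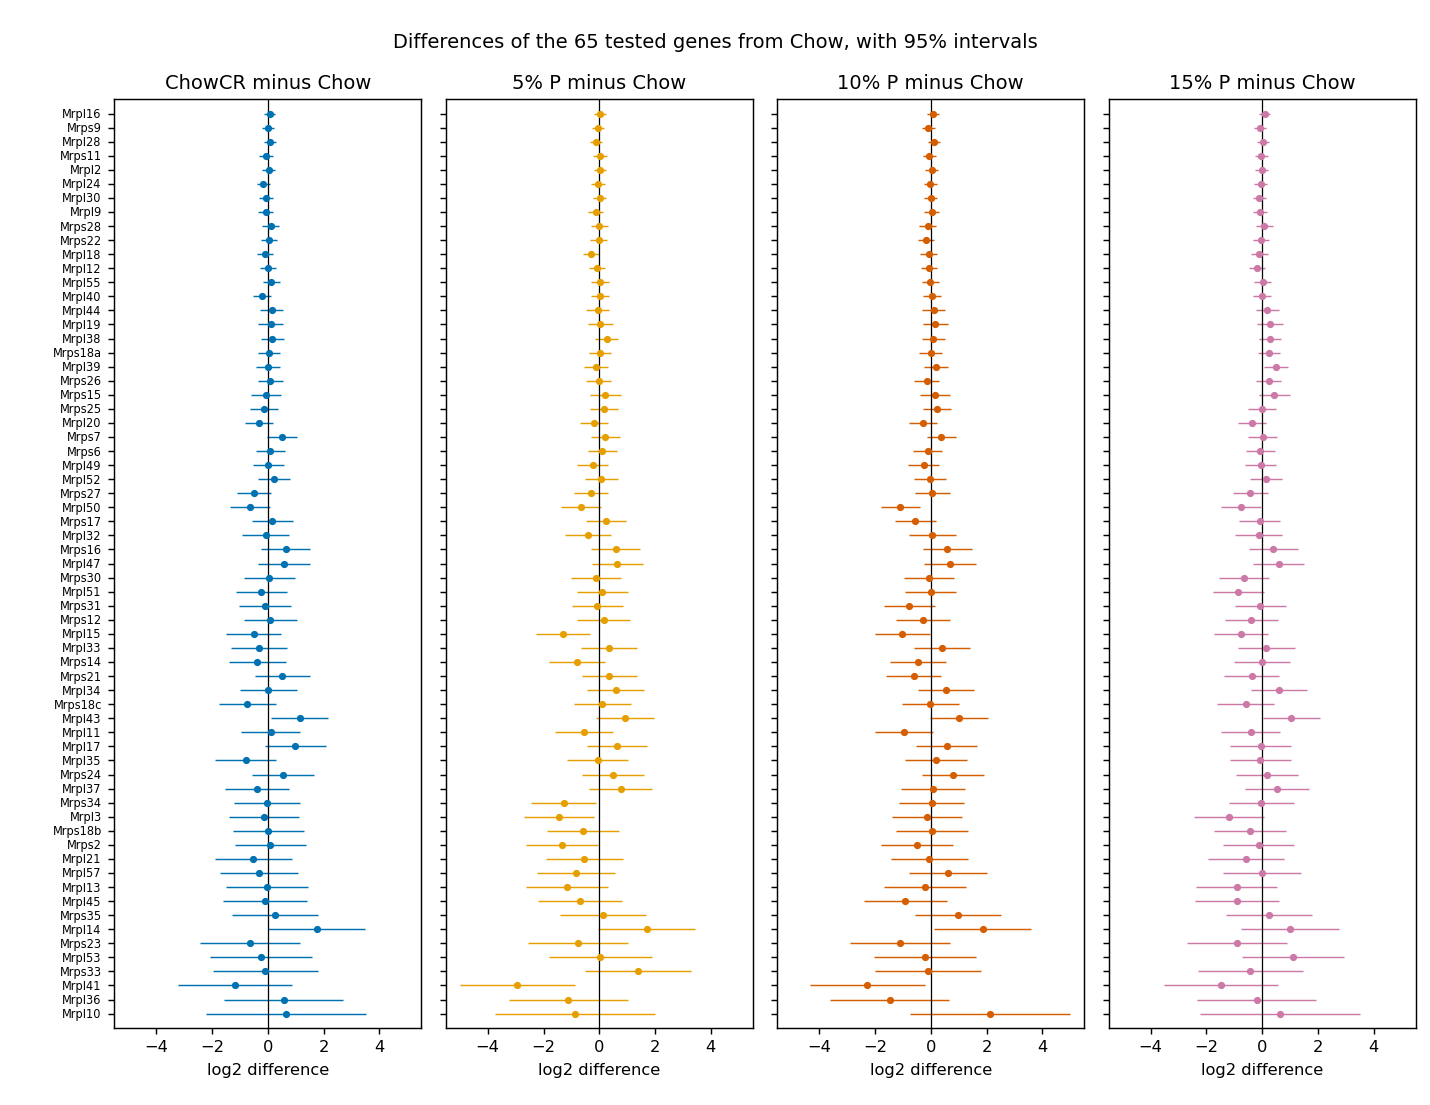
Log2 differences of the 65 tested genes, 1 panel for each diet minus Chow, with 95% intervals from limma, ordered from the smallest residual SD (top) to the largest (bottom). Differences near the top lie close to 0 with narrow intervals, and those near the bottom, such as Mrpl10, Mrpl36 and Mrpl41, have intervals several log2 units wide; the panels share the Chow libraries.

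The precision differed widely between genes. The median SE of a difference from Chow was 0.44 on the log2 scale, with 0.10 for Mrpl16 and 1.39 for Mrpl10, and 17 of the 65 genes had an SE under 0.2. The 95% interval lay wholly within 0.5 log2 units of 0 for 15 genes between ChowCR and Chow, 17 between 5% P and Chow, 16 between 10% P and Chow and 14 between 15% P and Chow. It lay within 1 log2 unit for 29, 30, 31 and 30 genes in the same comparisons. For the remaining genes the interval reached past that size, so a change of that size was not excluded. Mrpl12 differed from Chow by -0.0047 ± 0.14 in ChowCR, -0.093 ± 0.14 in 5% P, -0.061 ± 0.14 in 10% P and -0.19 ± 0.14 in 15% P.

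The genes of described role gave no call in any diet. Mrps12 had log2 differences from Chow of 0.090 ± 0.46 in ChowCR, 0.16 ± 0.46 in 5% P, -0.28 ± 0.46 in 10% P and -0.39 ± 0.46 in 15% P. The homologues Mrps18a, Mrps18b and Mrps18c stood far apart in level, with means of 29.1, 1.17 and 15.0 FPKM. In 15% P against Chow their log2 differences were 0.24 ± 0.19, -0.44 ± 0.63 and -0.59 ± 0.50. Mrps27, a small subunit protein with an RNA-binding repeat fold, lay between 2.11 and 11.3 FPKM, and Mrps35 between 0 and 7.33 FPKM, over the 30 libraries. Mrpl45, which sits at the tunnel exit where new chains leave, was at 0 in 1 library each of 5% P, 10% P and 15% P and at 5.73 FPKM or above in the other 27. Mrpl44 differed from Chow by 0.18 ± 0.20 in 15% P and by smaller amounts in the other diets.

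The P diets together were also set against Chow and against ChowCR. Against Chow, limma called 0 of the 65 genes and 0.0123% of all genes tested, and 5 genes had an unadjusted p under 0.05 (7.69%, against 5.87% of all genes tested). The differences were above 0 for 29 genes, or 44.6%, against 47.5% of all genes tested. The count at an unadjusted p was 3 without Chow replicate 4. Against ChowCR, limma called 0 of the 65 genes and 0.0246% of all genes tested, and 0 genes had an unadjusted p under 0.05, against 6.01% of all genes tested. That count was 3 without ChowCR replicate 3, 2 without ChowCR replicate 5, and 1 without Chow replicate 1, ChowCR replicate 6, 5% P replicate 2, 10% P replicate 5, 15% P replicate 4 or 15% P replicate 5. The differences from ChowCR were above 0 for 25 genes, or 38.5%, against 44% of all genes tested, with a median log2 difference of -0.068 against -0.047.

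The smallest p between the P diets and ChowCR belonged to Mrpl37, Mrpl35, Mrps21 and Mrpl36. Mrpl37 passed the filter of a mean of 1 FPKM only through 5% P replicate 3, at 19.3 FPKM, against at most 1.97 in each other library. That library is in the group where Mrpl37 is higher, so its place among the smallest p depends on it. With each library left out in turn, its log2 difference ran from 0.63 to 1.03. Of the summed FPKM of Mrpl37, 59.7% came from a retained intron transcript and 36.9% from protein-coding transcripts. The log2 differences were 0.86 ± 0.45 for Mrpl37, 0.82 ± 0.44 for Mrpl35, -0.73 ± 0.39 for Mrps21 and -1.50 ± 0.84 for Mrpl36, with adjusted p between 0.827 and 0.849 (limma). Mrpl36, the smallest core protein of the large subunit in bacteria, was at 0 in 2 libraries of 5% P, 1 of 10% P and 1 of 15% P, against 7.496 to 14.1 FPKM in ChowCR. Mrps21 ran from 10.2 to 23.4 FPKM in 5% P, 2.02 to 12.7 in 10% P, 4.11 to 10.8 in 15% P and 3.87 to 37.5 in ChowCR. Its difference was -0.44 without ChowCR replicate 4 and -1.16 without ChowCR replicate 5. In females alone it was -1.45 and in males alone -0.0030, and it was -0.12 over the transcript of highest mean. With a pseudocount of 0.1 the difference was 1.51 for Mrpl37 and 1.41 for Mrpl35. With libraries not listing the top transcript left out, it was 0.57 for Mrpl37 and -0.63 for Mrpl36, and in females alone that of Mrpl36 was -0.99. Numbers in the titles of the ChowCR samples lie above those of every other diet, and a batch that followed them cannot be told apart from ChowCR.

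Across protein content, 15% P was set against 5% P, which in this design equals the linear trend over 5%, 10% and 15% protein. The series title speaks of diets low in protein and high in carbohydrate, and a difference by carbohydrate cannot be told apart from one by protein. Of the 65 genes 0 were called, as were 0% of all genes tested, and 3 genes (4.62%) had an unadjusted p under 0.05, against 4.8% of all genes tested. The differences were above 0 for 31 genes, or 47.7%, against 47.9% of all genes tested. The smallest p was that of Mrpl39, with medians of 8.35 FPKM in 5% P, 10.6 in 10% P and 13.5 in 15% P. It lay between 10.6 and 17.2 FPKM in 15% P, against 5.97 to 14.02 FPKM in 5% P, and 1 library of 5% P lay inside the range of 15% P. The log2 difference was 0.62 ± 0.21 (SE, 95% interval 0.19 to 1.04, adjusted p = 0.994, limma). Mrpl51 had 0, 4.68 and 8.04 FPKM in 15% P, against 5.496, 7.55 and 9.36 FPKM in 5% P. Its log2 difference of -0.97 ± 0.45 became -0.38 without 15% P replicate 6, -0.18 where libraries not listing its top transcript were left out, -0.49 in males alone and -1.67 over protein-coding transcripts. Mrps33 had a log2 difference of -1.82 ± 0.92 and Mrps34 one of 1.23 ± 0.57, and over protein-coding transcripts alone these were -0.27 and 0.064. In females alone they were -0.98 and 0.63.

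Over diets, limma's F test called 0 of the 65 genes and 0.0123% of all genes tested, and 0 of the 65 had an unadjusted p under 0.05, against 5.2% of all genes tested. Without 1 library the count at an unadjusted p ran from 0 to 3: it was 3 without 10% P replicate 2, and 2 without Chow replicate 4 or 5, ChowCR replicate 6, 5% P replicate 2 or 5, 10% P replicate 4 or 5, or 15% P replicate 6. It was 1 without Chow replicate 1 or 3, ChowCR replicate 3, 4 or 5, 5% P replicate 4, 10% P replicate 1, 3 or 6, or 15% P replicate 4. Between females and males, 0 of the 65 and 0.0615% of all genes tested were called, and 1 gene had an unadjusted p under 0.05, against 5.01% of all genes tested. That gene was Mrpl21, named after its value was seen, with a log2 difference of 0.92 ± 0.42 for females minus males (adjusted p = 0.907, limma). Between the sexes the count was 3 without 10% P replicate 1 or 5, 2 without Chow replicate 1, ChowCR replicate 1, 5% P replicate 5, 10% P replicate 4 or 6, or 15% P replicate 6, and 0 without ChowCR replicate 3, 4 or 6 or 5% P replicate 1, 2, 4 or 6. Females were above males in 33 of the 65 genes, or 50.8%, against 51.6% of all genes tested, and the median log2 difference between the sexes was 0.0071, against 0.0086 over all genes tested. The test of whether diet differences differed between the sexes called 0 of the 65 and 0.0861% of all genes tested, with 1 gene at an unadjusted p under 0.05, against 4.76%. That count was 4 without 10% P replicate 6, 3 without 5% P replicate 1, 2 without ChowCR replicate 5 or 15% P replicate 3 or 4, and 0 without Chow replicate 1, 2 or 4.

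Other genes of mitochondrial translation gave no call in any of the 4 diets against Chow. Of 6 mitoribosomal proteins named outside the Mrpl and Mrps scheme, among them Dap3 and the release factor Ict1 (also called Mrpl58), 5 were tested and none had an unadjusted p under 0.05. Translation factors of the organelle, 8 tested, had median log2 differences from Chow of -0.0065 in ChowCR, -0.24 in 5% P, -0.11 in 10% P and -0.28 in 15% P, with none at an unadjusted p under 0.05. Of 18 tested assembly and ribosomal RNA factors, 4 had an unadjusted p under 0.05 in ChowCR, 0 in 5% P, 0 in 10% P and 2 in 15% P. That is 22.2% against 6.51% of all genes tested in ChowCR, 0% against 5.19% in 5% P, 0% against 6.13% in 10% P and 11.1% against 5.31% in 15% P, and the shares over all genes are the same for the lists that follow. Median log2 differences of these factors were 0.044, -0.0033, -0.0090 and -0.13 in the same order of diets. Mitochondrial tRNA synthetases, which charge the tRNAs this ribosome reads, had 8 tested genes, with 1, 0, 0 and 1 in the same order of diets. The 63 nuclear subunits of oxidative phosphorylation, which meet the products of this ribosome in the inner membrane, had 2, 3, 2 and 4, with median log2 differences from -0.028 in 15% P to 0.026 in ChowCR. The 30 genes with symbols of cytosolic ribosomal proteins had 1, 2, 2 and 1. Only 2 genes of mitochondrial transcription were tested, with 1, 1, 1 and 0. Among nuclear regulators of mitochondrial genes, 6 were tested, with 1, 0, 1 and 0.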

How the data were processed

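The deposited values are FPKM per transcript, computed by the authors, and no read counts were used. The submitters' processing notes give no role or order for the tools they name, which are TopHat2 2.0.14, bcl2fastq 2.18.0, DESeq2 1.16.1, featureCounts 1.4.6 and StringTie 1.2.4, with mm10 as the genome. Per the labels' protocols, libraries came from about 300 ng of Trizol RNA with a stranded poly(A) kit and were read by 100 cycles of single-end sequencing. The depth per library is unknown and its precision was judged from the spread of replicates.

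FPKM were summed per symbol (46109 rows, of which 2115 are named by location and were left out). limma 3.58.1 in R 4.3.3 (lmFit, eBayes with trend) was fitted to log2(FPKM + 0.5), which understates the change of low genes, over genes with a mean of at least 1, on all 30 libraries with diet and sex as terms. Tests were two-sided with Benjamini-Hochberg adjustment and a threshold of 0.05. Members, gene lists and tests were chosen with earlier results of these data known.

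Genes named with values were those with the 4 smallest p in each of 6 comparisons, the 5 highest and 5 lowest means, the 4 largest residual SDs, those missing the filter, and a list chosen by role. Alternatives covered the pseudocount, the filter, the handling of transcripts, the scaling, covariates, weights, each sex alone and leaving out each library. Promoters came from RefSeq (GRCm38.p6) and matched 62 of the 70 genes, and positions came from GENCODE M21, which matched all 70.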

Additional observations from a re-analysis of the deposited data

Results flagged for a closer look

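The check took 242 groups of 6 libraries, which covered 48 of the genes named in the report and 3 summed levels. Mrps24 was not among the genes checked. Of the 242 groups, 60 (24.8%) held a library that stood apart from the others of its diet (past Dixon's critical value for 6 values). Chance flags about 1 in 20 groups, but many of these genes were named for their extreme or uneven values, so that share is not comparable with it. Of the 60, 42 stood apart on the low side and 18 on the high side.

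Among the low values, 18 were 0 FPKM. They were those of Mrpl43, Mrpl14 and Mrpl33 in Chow, the first 2 in replicate 4 and Mrpl33 in replicate 5, of Mrpl37 and Mrpl10 in 10% P replicate 5, and of Mrpl35 in 5% P replicate 2 and 15% P replicate 4. They were also those of Mrpl36 in 15% P replicate 5, Mrpl51 in 15% P replicate 6, Mrpl21 in 15% P replicate 5 and Mrps30 in 15% P replicate 2. Mrpl45 was at 0 FPKM in replicate 2 of 5% P, 10% P and 15% P, and Mrps35 in ChowCR replicate 1, 5% P replicate 4, 15% P replicate 4 and Chow replicate 1.

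Low values above 0 were found in several abundant genes. Mrps12, at the decoding centre, was at 2.615 FPKM in 10% P replicate 4, against 22.9 to 29.4 in the other 5, and at 1.877 FPKM in 15% P replicate 2, against 24.8 to 29.2 in the other 5. Mrps18a was at 16.65 FPKM in ChowCR replicate 5, 17.06 in 5% P replicate 4 and 16.07 in Chow replicate 5. Mrpl20 was at 19.88 FPKM in 5% P replicate 3 and 17.43 in 10% P replicate 2, and Mrpl12 at 16.1 FPKM in 15% P replicate 6. Mrpl11 was at 5.245 FPKM in ChowCR replicate 3, against 25.7 to 30.7 in the other 5. Mrps18c was at 1.196 FPKM in ChowCR replicate 4 and 1.121 in 15% P replicate 5.

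Further low values were those of Mrpl50 at 0.3504 FPKM in 10% P replicate 3, Mrpl57 at 0.1267 in 10% P replicate 1, Mrps26 at 2.534 in 10% P replicate 5 and Mrpl44 at 3.372 in 5% P replicate 6. Mrpl21 was at 0.08486 FPKM in ChowCR replicate 3 and 0.2471 in 5% P replicate 1. Mrpl36 was at 0.367 FPKM in Chow replicate 2, and Mrps27 at 4.607 in Chow replicate 5. Mrpl43 was at 7.598 FPKM in 5% P replicate 5, and Mrps15 at 0.7094 in 5% P replicate 3. In 15% P, Mrps21 was at 4.106 FPKM and Mrpl17 at 0.7167 in replicate 2, and Mrps34 at 1.046 in replicate 6.

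On the high side, Mrpl15 was at 16.84 FPKM in 10% P replicate 6, against 4.14 to 4.97 in the other 5, and Mrpl11 at 25.77 in 10% P replicate 4. Mrps34 was at 21.17 FPKM in ChowCR replicate 6, and Mrpl37 at 19.34 in 5% P replicate 3. Mrps18b was at 8.431 FPKM in ChowCR replicate 6, 6.353 in 10% P replicate 3 and 5.733 in Chow replicate 5. In 10 groups a single library was above 5 libraries at 0. These were Mrpl10 at 18.52 FPKM in 5% P replicate 3, and Mrps5 at 0.2244 in ChowCR replicate 2, 1.557 in 5% P replicate 4, 14.27 in 15% P replicate 1 and 0.5674 in Chow replicate 3. They were also Mrpl22 at 3.062 FPKM in Chow replicate 5, Mrpl48 at 0.2297 in 5% P replicate 3, 0.5792 in 10% P replicate 3 and 0.1049 in 15% P replicate 5, and Mrps10 at 0.2739 in 10% P replicate 1. The small subunit genes summed to 280.7 FPKM in 10% P replicate 3, against 219 to 237 in the other 5.

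In 1 of 204 comparisons of a diet with Chow in each sex, all libraries of one sex moved one way and all of the other sex the opposite way. Mrps26 had 6.62 to 8.64 FPKM in 10% P females, against 5.27 to 5.62 in Chow females, and 2.53 to 5.92 FPKM in 10% P males, against 6.87 to 8.14 in Chow males. The log2 difference from Chow was 0.37 in females and -0.67 in males, 1.039 apart. This pair of differences was not tested by itself, and limma's test over all diets gave Mrps26 an adjusted p of 0.972.

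A row of the table that is named only by its location, chromosome 11 from 5713352 to 5722844, was not counted in any gene's sum. It overlaps part of the annotated span of Mrps24, 5703983 to 5715680 on the minus strand. It runs past the higher coordinate, which is the side of the annotated start. The promoter window of Mrps24, drawn at a RefSeq start inside that span (5707652 to 5707951 on the minus strand), lies outside the row. The gene Urgcp also overlaps the span of Mrps24. Which gene the row belongs to was not tested. The row was at 9.209 FPKM in ChowCR replicate 4, 10.41 in ChowCR replicate 5, 9.421 in 5% P replicate 5 and 8.771 in 15% P replicate 4.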

How the results depend on the processing

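Of the tested genes of the family, 0 were called in each comparison under every alternative run (limma), which came to 19 settings and 30 left-out libraries for a diet against Chow. The smallest adjusted p over these was 0.255, between ChowCR and Chow with libraries not listing a gene's top transcript set to missing. That setting, and the one limited to genes above 0 in all 30 libraries, were chosen after seeing the data. Median log2 differences moved by less than 0.116, the SD of the library median within diets, in every alternative. Counts at an unadjusted p under 0.05 ran from 0 to 4 between ChowCR and Chow, 2 to 9 between 5% P and Chow (9 without Chow replicate 1), 1 to 7 between 10% P and Chow and 0 to 4 between 15% P and Chow. The share of all genes tested at that p was taken in the main fit only. These counts therefore cannot be judged as many or few. Of the differences of named genes, 1 changed sign: Mrps34 between 5% P and Chow was 0.18 over protein-coding transcripts alone, where its other transcripts are left out. Over the whole table, calls ran from 1 to 6 between ChowCR and Chow, 0 to 3 between 5% P and Chow, 0 to 5 between 10% P and Chow and 0 to 3 between 15% P and Chow. No paired analysis was possible because the labels give the groups no shared replicate numbers. Unknown depth limits the low genes most, for which 0 may be a transcript that was not listed.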
